A study of Mus musculus with 8 samples.

Results

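The genes described here are Prss56, Mfrp, Adamts19, Gjd2, Tmem98 and Rasgrf1, which are tied to the growth of the eye and to refraction. They were taken from the count table by the Ensembl identifiers of their symbols, and all 6 were found among the 57010 identifiers of the table and passed the filter on low counts, which left 20457 genes to test. The set was chosen in part because Prss56 stood high in rd10 retinas at P18 and low at P21. For that reason its values at these ages are a description without a test.

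Whole-retina poly(A) RNA was sequenced from mice, with 1 retina per library and 2 libraries per group. The groups were wild-type (WT) C57BL/6J littermates at postnatal day 15 (WT P15) and, at P15, P18 or P21, animals of the rd10 strain. These are homozygous for a mutation in Pde6b, a subunit of the phosphodiesterase of rods, so that the rods degenerate from the third postnatal week on. No treatment was given, no WT library of P18 or P21 was analysed here, and age and genotype therefore cannot be told apart in a comparison of rd10 P18 or P21 with WT P15. The 3 comparisons with WT P15 share their control libraries.

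An eye grows until its axial length matches the focal length of its optics, and signals from the retina and from the retinal pigment epithelium (RPE) guide the sclera in this growth. Loss of Prss56 or Mfrp function gives a short, far-sighted eye. In people, variants of TMEM98 are linked to eye size, and common variants near GJD2 and RASGRF1 to refraction. In the retina, Prss56 is a secreted trypsin-like serine protease of Müller glia, and Adamts19 is a secreted metalloprotease. Mfrp is a frizzled-related membrane protein of the RPE and the ciliary epithelium, and in mice without it the retinal transcripts of Prss56 and Adamts19 are raised. Tmem98 is a membrane protein that binds the transcription factor Myrf, Gjd2 (connexin 36) forms the gap junctions of photoreceptors and AII amacrine cells, and Rasgrf1 is a calcium-responsive exchange factor for Ras, expressed from the paternal allele in several tissues.

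The libraries held 28076947 to 33724562 counts. By their Y-linked and Xist counts, both WT P15 libraries were from females, both rd10 P15 libraries from males, and rd10 P18 and P21 had 1 male (replicate 1) and 1 female (replicate 2) each. Replicate 1 of rd10 P18 stood apart from replicate 2 by transcript length. Genes with at least 8000 exon bases were lower in it (median log2 ratio to replicate 2 -0.45, 2639 genes), genes under 3000 bases were higher (0.29, 4629 genes), and these medians lay between -0.02 and 0.04 in the other groups. The nominal tissue was checked by markers. Rod genes summed to 45849 and 36611 CPM (counts scaled to a common library total) in WT P15 and to 17538 and 22854 in rd10 P21, and lens genes summed to at most 6.47 CPM in any library. In bulk tissue, fewer cells of a type and less RNA per cell cannot be told apart.

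Levels are given as CPM after TMM normalization, which scales each library to a common composition. On this scale and per kilobase of exon, so that genes can be compared, Gjd2 was the highest of the 6 in WT P15 at 51 ± 1.89 (SD, n = 2 here and below), followed by Rasgrf1 at 14.4 ± 0.21, Tmem98 at 6.68 ± 2.6, Prss56 at 5.74 ± 1.09, Mfrp at 1.35 ± 0.831 and Adamts19 at 0.158 ± 0.0825. The levels of Tmem98 and Prss56 overlapped between libraries, and those of the other neighbours in this order did not. In rd10 P18, Prss56 came second at 39.4 ± 20.2 CPM per kilobase, next to Gjd2 at 49.6 ± 1.68, and the levels of these 2 genes overlapped between libraries. In rd10 P21 it stood at 0.88 ± 0.00324, below Mfrp at 1.56 ± 0.767.

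**Figure D1:**
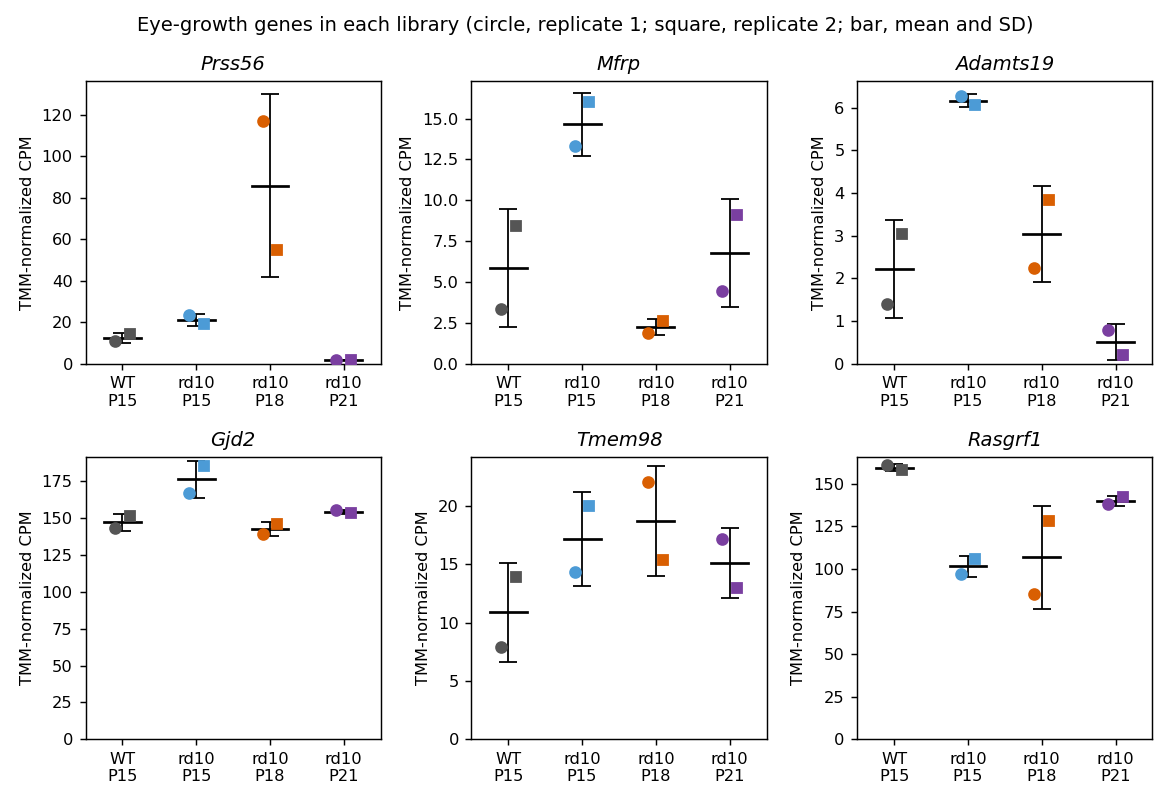
TMM-normalized CPM (vertical axis, from 0, a scale of its own for each gene) of the 6 genes in the 8 libraries, grouped by genotype and age. Circles are replicate 1, squares replicate 2, and bars the mean and SD of a group. Prss56 stands at 117 and 54.8 CPM in rd10 P18 and at 1.91 and 1.92 in rd10 P21, while Gjd2 lies between 139 and 185 CPM in every library.

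Prss56 (ENSMUSG00000036480) lies on chr1:87183313-87188405 of GRCm38, plus strand, with 2180 exon bases in 13 blocks and no overlapping gene. Its upstream sequence is shown since Prss56 had the widest range of the 6 genes and stood high at P18, as did Stat3, which was read at 70.8 and 72.7 CPM in WT P15 and 194 and 205 in rd10 P18. In rd10 P21 Stat3 still stood at 154 and 168 CPM, where Prss56 was at its lowest. The 249 bases before its annotated start, chr1:87183064-87183312, RefSeq window on GRCm38.p6, are given in the direction of the gene. Capitals mark a match to the motif of STAT factors, TTCNNNGAA, at base 99 of the window.
Prss56: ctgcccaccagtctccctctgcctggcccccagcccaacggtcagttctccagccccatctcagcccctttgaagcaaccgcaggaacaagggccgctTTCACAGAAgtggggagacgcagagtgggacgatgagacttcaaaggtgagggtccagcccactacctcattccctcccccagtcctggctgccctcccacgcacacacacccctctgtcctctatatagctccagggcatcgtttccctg

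The same motif was found on either strand in 7.02% of 32851 upstream windows of 250 bases, and also in that of Mfrp. Of 4 other motifs searched on both strands, none was found in the window of Prss56. These were TGANTCA of the AP-1 factors, which 6.75% of windows hold, TAATCC of the photoreceptor factors Crx and Otx, which 6.25% hold, CACGTG of E-box factors, which 6.02% hold, and the core promoter box TATAAA, which 12.4% hold. A match describes letters only, and no binding was measured.

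The 2 WT P15 libraries held Prss56 at 10.8 and 14.2 CPM, and those of rd10 P15 held it at 23.3 and 19. Both rd10 P15 libraries lay above both WT P15 libraries, with a log2 fold change of 0.76 ± 0.33 (SE) that did not pass the test (edgeR adjusted p = 0.404), and with a term for sex the difference was 0.12. In rd10 P18, Prss56 reached 117 CPM (3926 counts) and 54.8 CPM (1740 counts). In rd10 P21 it stood at 1.91 and 1.92 CPM, on 67 and 55 counts.

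The groups did not overlap, in the order rd10 P18, rd10 P15, WT P15, rd10 P21. The log2 fold changes to WT P15 were 2.78 at P18 and -2.70 at P21, and the mean of rd10 P18 was 44.8 times that of rd10 P21. Replicate 1 of rd10 P18 was 2.14 times replicate 2. Prss56 has 2180 exon bases, and genes under 3000 bases were higher in that replicate 1 (median log2 ratio to replicate 2 0.29). The part of transcript length in this difference was not tested. Without replicate 1 the log2 fold change at P18 was 2.13, and without replicate 2 it was 3.23, so that each rd10 P18 library, male or female, stood above all libraries of the other groups. Against rd10 P15, Prss56 was higher by 2.02 at P18 and lower at P21 (-3.46), and from P18 to P21 the log2 fold change was -5.48.

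The nearest protein-coding gene before Prss56, Ecel1, a metalloprotease known to be induced in injured neurons, lies 26792 bases away on the opposite strand. It had 0 counts in both WT P15 libraries, 19 in each rd10 P15 library, 55 and 45 in rd10 P18, and 0 in both rd10 P21 libraries. The next gene, Chrnd, a subunit of the muscle acetylcholine receptor 2202 bases away, had 0 counts in all 8 libraries. Ecel1 thus had its highest counts in the same libraries as Prss56, on few reads.

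Müller glia, the cells that make Prss56 in the retina, were followed by 2 lists. Of 10 genes of Müller glia in general, such as Glul (glutamine synthetase) and Rlbp1 (a retinaldehyde-binding protein), none was called in any of the 6 comparisons, and they summed to 4423 and 4913 CPM in WT P15 and, across the rd10 ages, 4712 and 4025 at P15, 3710 and 3927 at P18, and 5691 and 5441 at P21. The sum was thus lowest in the rd10 P18 libraries, where Prss56 was highest, and highest in those of rd10 P21, where Prss56 was lowest. Much of the sum was Glul, at 2499 and 2736 CPM in WT P15 and 1814 and 1847 in rd10 P18. In rd10 P18 against WT P15, 5 of the 10 genes had a positive log2 fold change (median 0.05, and 0.01 over all genes). In rd10 P21, all 10 had one (median 0.42, and 0 over all genes). A gene was called at an adjusted p under 0.05 with an absolute log2 fold change over 1. At an unadjusted p under 0.05 there were 1, 6 and 6 of these 10 genes in rd10 P15, P18 and P21 against WT P15, beside 12.3%, 17.4% and 11.8% of all genes.

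The list of reactive Müller glia holds 10 genes, among them Edn2, which stressed photoreceptors make. All 10 were called higher in rd10 P18 against WT P15 (median log2 fold change 2.84, and 0.01 over all genes tested), where 1.15% of all genes were. At P21, 7 of 10 were called higher (median 1.78, background 0.244%). With a library left out, between 6 (without WT P15 replicate 1) and 10 of the 10 stayed called at P18, 7 without WT P15 replicate 2. At P21, 0 of the 7 stayed called without WT P15 replicate 1 or either rd10 P15 library, 1 without rd10 P21 replicate 1 and 3 without WT P15 replicate 2, and 2 stayed called with a term for sex or a block for replicate number. Gfap, an intermediate filament protein of gliosis, stood at 27.3 and 43 CPM in WT P15 and, across the rd10 ages, 28.1 and 25 at P15, 363 and 399 at P18, and 126 and 120 at P21. Its log2 fold change to WT P15 was 3.44 ± 0.22 at P18 (edgeR adjusted p = 0.000745) and 1.81 ± 0.21 at P21 (edgeR adjusted p = 0.0288).

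Socs3, the feedback inhibitor of STAT3 signaling, rose by 3.80 ± 0.29 at P18 (edgeR adjusted p = 0.00171), and Lcn2, a secreted iron-siderophore carrier, by 5.99 ± 0.85 (edgeR adjusted p = 0.037). Serpina3n, a secreted serine protease inhibitor, rose by 5.74 ± 0.51 (edgeR adjusted p = 0.00787). Edn2, an endothelin of the list that stressed photoreceptors make, fell at P15 (-4.21 ± 0.51, edgeR adjusted p = 0.0252) and rose at P18 (3.30 ± 0.39, edgeR adjusted p = 0.0108). Its call at P15 was lost with a term for sex, with a block for replicate number and without any of the rd10 P15 or rd10 P21 libraries. At P21 the summed level of the list was 939 and 694 CPM against 254 and 280 in WT P15, whereas Prss56 stood below WT P15 in both libraries. From P18 to P21, none of the 10 genes was called, 9 of 10 lay lower in both P21 libraries (22% of all genes did), and the median log2 fold change was -1.06, beside -5.48 for Prss56. By edgeR, 8 of the 10 had an unadjusted p under 0.05 in that comparison, and 10.8% of all genes did. Microglia genes also stood higher at P18, with sums of 222 and 224 CPM beside 70 and 76.3 for WT P15, and they remained at 325 and 175 CPM at P21, when Prss56 was lowest. The part of either cell type in the level of Prss56 was not tested.

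**Figure D2:**
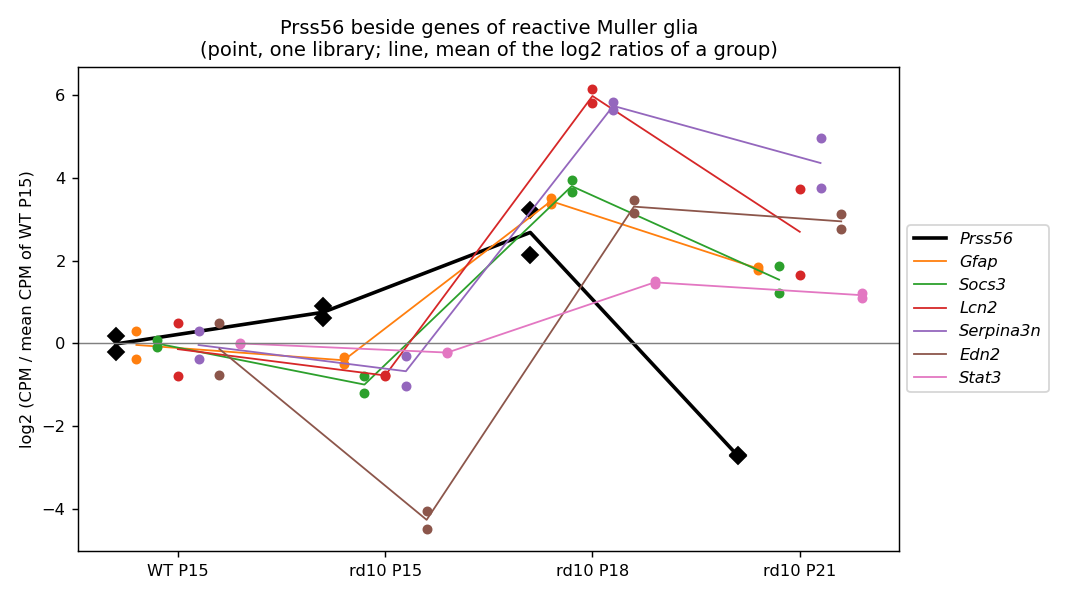
Log2 ratio of CPM to the mean CPM of WT P15 (vertical axis) for Prss56 (diamonds) and 6 genes of the reactive Müller list (dots), 1 point per library, with lines through the mean log2 ratio of each group. Of the 6, Edn2 is made by stressed photoreceptors. At P18 all 7 genes stand above the WT P15 level in both rd10 libraries, and at P21 Prss56 alone of the 7 stands below it, at a log2 fold change of -2.70.

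The genes whose pattern over the 8 libraries was most like that of Prss56, by Pearson's r of log2 CPM among 15129 genes with a mean count of at least 50, were Slc35f5 (r = 0.9727), Elp5 (0.9715), Egln1 (0.9676), Mccc2 (0.9629) and Wdr61 (0.9492). All 8 points come from 4 groups, and r does not measure the size of a change. Egln1, an oxygen-sensing prolyl hydroxylase, stood at 104 CPM in both WT P15 libraries, 142 and 127 at P18 of rd10 and 95.4 and 88.4 at P21, a far narrower range than that of Prss56.

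Adamts19 (ENSMUSG00000053441) lies on chr18:58836667-59054060 of GRCm38, plus strand, with 14040 exon bases in 22 blocks and no overlapping gene. It was the scarcest of the 6 genes, with 38 and 94 counts (1.4 and 3.04 CPM) for WT P15 and 197 and 172 counts (6.27 and 6.06 CPM) for rd10 P15. In rd10 P18 it had 75 and 122 counts (2.24 and 3.84 CPM), and in rd10 P21 it had 28 and 6 counts (0.799 and 0.21 CPM). The rd10 P15 libraries lay above all others, the rd10 P21 libraries lay below all others, and rd10 P18 overlapped WT P15. Genes with at least 8000 exon bases, as Adamts19 has, were lower in replicate 1 of rd10 P18 (median log2 ratio to replicate 2 -0.45).

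Against WT P15, the log2 fold change of Adamts19 was 1.47 ± 0.62 at P15 (edgeR adjusted p = 0.388), 0.45 ± 0.61 at P18 (edgeR adjusted p = 0.763) and -2.11 ± 0.66 at P21 (edgeR adjusted p = 0.246). With a library left out, the value at P21 ranged from -3.38 (without rd10 P21 replicate 1) to -1.45 (without WT P15 replicate 2). Between rd10 P15 and P21, the ratio of means was 12.2 and the log2 fold change was -3.58 ± 0.69, and without rd10 P21 replicate 1 or 2 it was -4.85 or -2.94. The fit of all libraries missed the threshold with edgeR (adjusted p = 0.084) and passed it with DESeq2 (-3.59, adjusted p = 2.9e-05). It also passed with edgeR when either rd10 P18 library, neither of which is in the comparison, was left out of the fit (edgeR adjusted p = 0.0335 without replicate 1, 0.0357 without replicate 2). From P18 to P21 the value was -2.56 ± 0.67 (edgeR adjusted p = 0.412, DESeq2 adjusted p = 0.0339).

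Of 18 other Adamts proteases, 16 were tested. None was called against WT P15 at any age, and their median log2 fold changes were 1.02, 0.49 and 0.76 at P15, P18 and P21. At an unadjusted p under 0.05 there were 8, 5 and 7 of the 16, beside 12.3%, 17.4% and 11.8% of all genes. Adamts1, an aggrecan- and versican-cleaving member, rose from 30.3 and 24.7 CPM in rd10 P15 to 68 and 86 in rd10 P18 (1.49 ± 0.18, edgeR adjusted p = 0.0166). Adamts16 fell from 5.92 and 9.13 CPM in rd10 P15 to 0.628 and 0.489 in rd10 P21 (-3.74 ± 0.44, edgeR adjusted p = 0.0193). Neither call held when a rd10 P15 library was left out. The genes most like Adamts19 in pattern were Zfp235 (r = 0.9583), Isl2 (0.9496) and Lrrc49 (0.9453).

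Mfrp (ENSMUSG00000034739) lies on chr9:44101729-44109187 of GRCm38, plus strand, with 4334 exon bases in 14 blocks. C1qtnf5, a secreted short-chain collagen of the RPE that is read from a dicistronic transcript with Mfrp, shares 1589 exon bases with it on the same strand, which is 36.7% of the Mfrp exons. Reads there cannot be assigned to one gene with certainty, and the opposite-strand genes Gm20444 and Rnf26 share 648 and 54 bases more. The upstream RefSeq window of Mfrp is shown because it also holds the STAT motif. It spans 209 bases, chr9:44101520-44101728, and capitals mark a match to the Crx/Otx motif on the opposite strand (base 117) and one to the STAT motif (base 139).
Mfrp: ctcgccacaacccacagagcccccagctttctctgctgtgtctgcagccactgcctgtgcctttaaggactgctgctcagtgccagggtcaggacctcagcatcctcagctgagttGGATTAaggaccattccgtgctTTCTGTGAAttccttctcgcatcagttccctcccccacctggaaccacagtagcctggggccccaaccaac

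The 2 WT P15 libraries held Mfrp at 3.33 and 8.42 CPM, and those of rd10 P15 held it at 13.3 and 16. It stood at 1.91 and 2.61 CPM in rd10 P18 (64 and 83 counts) and at 4.43 and 9.12 CPM in rd10 P21. The rd10 P15 libraries were the highest and the rd10 P18 libraries the lowest, and rd10 P21 overlapped WT P15, whose libraries differed by 2.53 times.

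Against WT P15, the log2 fold change of Mfrp was 1.32 ± 0.49 at P15 (edgeR adjusted p = 0.322), -1.38 ± 0.50 at P18 (edgeR adjusted p = 0.214) and 0.20 ± 0.49 at P21 (edgeR adjusted p = 0.944). These values rested on which WT library was used. Without WT P15 replicate 1 the value at P15 was 0.80, and without replicate 2 it was 2.14, while at P18 the values were -1.89 and -0.56. The direction at P21 turned when WT P15 replicate 1 (-0.30) or rd10 P21 replicate 2 (-0.40) was left out.

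From rd10 P15 to rd10 P18, Mfrp was lower by a ratio of means of 6.48, with a log2 fold change of -2.69 ± 0.52 that missed the threshold (edgeR adjusted p = 0.0712). It passed with DESeq2 (-2.69, adjusted p = 2.1e-05), and with edgeR without a filter on low counts (-2.70, adjusted p = 0.0368), with a term for sex (-3.09, adjusted p = 0.0358), with a block for replicate number (-2.72, adjusted p = 0.028) or without rd10 P18 replicate 2 (-2.94, adjusted p = 0.0478). The other alternatives did not bring it past the threshold.

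C1qtnf5 did not follow Mfrp. It stood at 1.07 and 0.356 CPM in WT P15 and, across the rd10 ages, 2.61 and 1.16 at P15, 5.91 and 6.02 at P18, and 3.05 and 1.26 at P21, and was highest where Mfrp was lowest. Its log2 fold change in rd10 P18 against WT P15, 3.06 ± 0.70, was not called (edgeR adjusted p = 0.0753). Of the sum of both genes, C1qtnf5 took 24.4% and 4.06% in WT P15, and in rd10 16.4% and 6.78% at P15, 75.6% and 69.7% at P18 and 40.8% and 12.1% at P21. The sum was 4.4 and 8.77 CPM in WT P15 and, across the rd10 ages, 15.9 and 17.2 at P15, 7.82 and 8.63 at P18, and 7.48 and 10.4 at P21. The sum in rd10 P18 thus overlapped that of WT P15, while Mfrp alone did not. How reads of the shared bases were counted is not given in the sources used here.

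Genes of the RPE, a tissue that a retina can carry along when it is isolated, were highest, like Mfrp, in the rd10 P15 libraries. They summed to 44.5 and 157 CPM in WT P15 and, across the rd10 ages, 264 and 298 at P15, 128 and 84.6 at P18, and 71.9 and 57 at P21. Of the 10 genes, 9 lay higher in both rd10 P15 libraries than in WT P15 (median log2 fold change 1.23, with 24.8% of all genes so placed), and 9 lay lower in rd10 P18 than in rd10 P15 (median -2.9, background 20.4%). None was called in these 2 comparisons by edgeR, with 5 and 9 at an unadjusted p under 0.05, beside 12.3% and 12.9% of all genes. The part of RPE tissue in the values of Mfrp was not tested.

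Tyrp1, a melanosome protein, had the second most similar pattern to Mfrp (r = 0.9719), behind Lrrc75b (0.9725) and before BC067074 (0.9573). It stood at 2 and 6.57 CPM in WT P15 and, across the rd10 ages, 14.3 and 13.6 at P15, 1.61 and 1.76 at P18, and 3.14 and 4.93 at P21. Rpe65, the isomerase of the visual cycle, stood at 3.47 and 15.5 CPM in WT P15 and, across the rd10 ages, 14.7 and 19.8 at P15, 1.61 and 0.693 at P18, and 1.46 and 1.54 at P21. In all 3 genes the lower WT P15 library was replicate 1. Mfrp did not overlap between rd10 P18 and P21, and Rpe65 did. Lrat, which forms retinyl esters, fell in rd10 P21 against WT P15 (-3.00 ± 0.47, edgeR adjusted p = 0.0488) and against rd10 P15 (-4.15 ± 0.49, edgeR adjusted p = 0.0193). The call against WT P15 was lost when any of the WT P15, rd10 P15 or rd10 P21 libraries was left out, and that against rd10 P15 when any of the 4 libraries compared was.

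The ciliary epithelium also makes Mfrp. The 7 matched genes of the ciliary body summed to between 428 and 670 CPM, and none was called. Much of the sum was Mab21l1, between 243 and 333 CPM, and Col9a1, between 68 and 212 CPM. At an unadjusted p under 0.05 there were 4, 1 and 2 of the 7 in rd10 P15, P18 and P21 against WT P15. Of all genes, 12.3%, 17.4% and 11.8% were. Optc, a leucine-rich protein of the ciliary epithelium, stood at 54.5 CPM in replicate 1 and 2.9 in replicate 2 of rd10 P18, and at 5.57 and 71.1 in rd10 P21, an order that Mfrp did not share in rd10 P18.

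**Figure D3:**
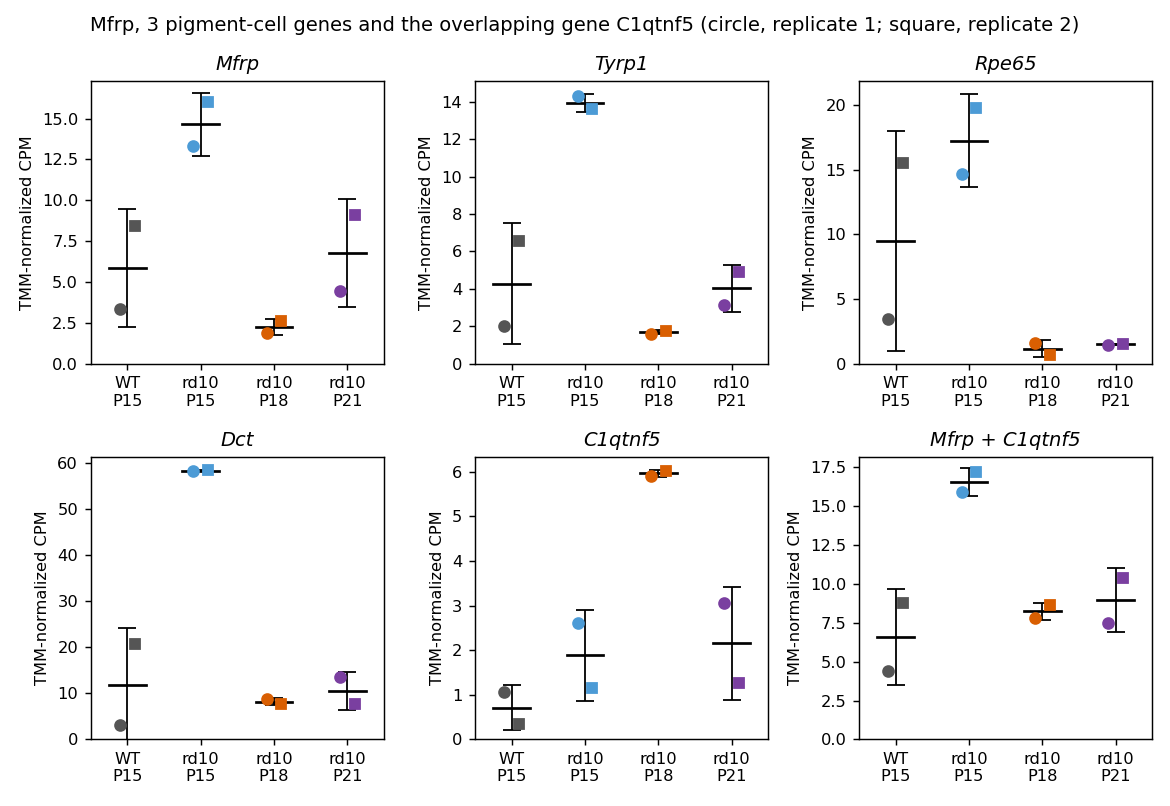
TMM-normalized CPM (vertical axis, from 0, a scale of its own for each panel) of Mfrp, of Tyrp1, Rpe65 and Dct, which are genes of pigment cells, of C1qtnf5, and of the sum of Mfrp and C1qtnf5. Circles are replicate 1, squares replicate 2, bars the mean and SD of a group. Mfrp, Tyrp1, Rpe65 and Dct have their highest means in rd10 P15, and C1qtnf5 has its highest level, 5.91 and 6.02 CPM, in rd10 P18.

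Tmem98 (ENSMUSG00000035413) lies on chr11:80810175-80822033 of GRCm38, plus strand, with 1633 exon bases in 7 blocks. It was read at 7.91 and 13.9 CPM in WT P15 and, across the rd10 ages, 14.3 and 20 at P15, 22 and 15.4 at P18, and 17.2 and 13 at P21. The 3 rd10 groups overlapped each other, and rd10 P21 overlapped WT P15. The log2 fold change to WT P15 was 0.65 ± 0.33 at P15 (edgeR adjusted p = 0.484), 0.78 ± 0.33 at P18 (edgeR adjusted p = 0.276) and 0.47 ± 0.33 at P21 (edgeR adjusted p = 0.66). With a term for sex the value at P15 was 0.18. Genes under 3000 exon bases, as Tmem98 is, were higher in replicate 1 of rd10 P18 (median log2 ratio to replicate 2 0.29).

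Myrf, the membrane-bound transcription factor that Tmem98 binds, was read at 2.51 and 5.92 CPM in WT P15 and, across the rd10 ages, 10.6 and 11.3 at P15, 2 and 2.74 at P18, and 1.46 and 1.92 at P21. It was not called in any comparison by edgeR. The libraries with the most Myrf were those of rd10 P15, as for Mfrp, whereas Tmem98 was as high in rd10 P18. Myrf is also made by oligodendrocytes, whose 8 genes summed to 64.7 to 91.5 CPM. Much of the sum was Mbp, the myelin basic protein, between 27.9 and 44.8 CPM, and Cnp, between 19.8 and 55.7 CPM. Of the others, Mobp was at 0 in every library, and Mog reached at most 0.0298 CPM. Mag reached at most 0.895 CPM and was at 0 in every P15 library. Sox10 reached at most 0.842 CPM and was at 0 in every rd10 P18 and P21 library. The part of oligodendrocytes in the level of Myrf was not tested. Cnp, an enzyme of myelin, was called higher in rd10 P18 than in WT P15 (1.21 ± 0.20, edgeR adjusted p = 0.0291), a call that was lost without any of the WT P15 or rd10 P15 libraries or rd10 P18 replicate 1. The genes most like Tmem98 in pattern were Rcn1 (r = 0.9859), C1ql2 (0.9763) and AW209491 (0.9605).

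Gjd2 (ENSMUSG00000068615) lies on chr2:114009601-114013619 of GRCm38, minus strand, with 2879 exon bases in 2 blocks. The antisense gene A530058N18Rik, annotated under 2 identifiers, overlaps it by 57 and 18 exon bases. Gjd2 was read at 143 and 151 CPM in WT P15 and, across the rd10 ages, 167 and 185 at P15, 139 and 146 at P18, and 155 and 153 at P21. Replicates differed by 1.02 to 1.11 times, and the ratio of the highest to the lowest group mean was 1.23. The log2 fold change to WT P15 was 0.26 ± 0.12 at P15 (edgeR adjusted p = 0.442), -0.04 ± 0.12 at P18 (edgeR adjusted p = 0.909) and 0.07 ± 0.12 at P21 (edgeR adjusted p = 0.91). At P18 the sign depended on scaling, with 0.08 when libraries were scaled by size only.

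Amacrine cells, which carry much of the connexin 36 of the retina, were followed by 8 genes such as Gad1, the enzyme that makes GABA. None was called, and their sum lay between 1114 and 1561 CPM. Of 14 other connexins and pannexins, 9 were tested. Panx1, a large-pore channel of neurons and glia, rose against WT P15 at both P15 (1.59 ± 0.20, edgeR adjusted p = 0.031) and P18 (1.20 ± 0.20, edgeR adjusted p = 0.0306). It was read at 9.61 and 11.4 CPM in WT P15 and, across the rd10 ages, 34.1 and 29 at P15, 21.3 and 27.1 at P18, and 16.8 and 17.8 at P21. Both calls were lost when any WT P15 or rd10 P15 library was left out, and that at P15 also with a term for sex or a block for replicate number. The genes most like Gjd2 in pattern were Kcnd2 (r = 0.973), Slc26a7 (0.9706) and Agps (0.9602).

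Rasgrf1 (ENSMUSG00000032356) lies on chr9:89909908-90026977 of GRCm38, plus strand, with 11063 exon bases in 28 blocks. It was read at 161 and 158 CPM in WT P15 and, across the rd10 ages, 97.1 and 106 at P15, 85.5 and 128 at P18, and 138 and 142 at P21. Every rd10 library lay below both WT P15 libraries. The log2 fold change to WT P15 was -0.65 ± 0.18 at P15 (edgeR adjusted p = 0.197), -0.58 ± 0.18 at P18 (edgeR adjusted p = 0.16) and -0.19 ± 0.18 at P21 (edgeR adjusted p = 0.779). With a term for sex the value at P15 was -0.34.

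Rasgrf1 is among the genes with long exons, and replicate 1 of rd10 P18, in which long transcripts were scarce, held its lowest value. Without that library the log2 fold change at P18 was -0.32, and without replicate 2 it was -0.90. Of 9 other Ras exchange factors, all were tested and none was called by edgeR in any comparison. The pair with the smallest unadjusted p in rd10 P18 against WT P15 were Rasgrf2 (-0.57 ± 0.19, edgeR adjusted p = 0.172), the closest relative of Rasgrf1, and Rapgef1 (-0.78 ± 0.28, edgeR adjusted p = 0.209), an exchange factor for Rap1. The genes most like Rasgrf1 in pattern were Ppfia1 (r = 0.9947), Slc35b4 (0.9856) and Inpp5j (0.983).

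Read together by the test over all genes, the P15 comparison with WT called 0 of the 6 genes, beside 0.23% of all genes in either direction, and DESeq2 also called 0. Unadjusted p was under 0.05 for 4 of the 6 there, and for 12.3% of all genes. All 6 had libraries that did not overlap between the groups, 5 of them higher in rd10 and Rasgrf1 lower, and 49.7% of all genes had libraries that did not overlap. Leaving out Prss56, 0 of 5 were called by edgeR in rd10 P18 (background 1.48%) and in rd10 P21 (0.386%) against WT P15, with 3 and 1 at an unadjusted p under 0.05 (17.4% and 11.8% of all genes) and 0 called by DESeq2.

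Between the rd10 ages, 0 of 5 were called by edgeR from P15 to P18 (background 0.591%), from P15 to P21 (0.401%) and from P18 to P21 (0.0196%), with 2, 3 and 2 at an unadjusted p under 0.05 (12.9%, 12.8% and 10.8% of all genes). DESeq2 called 1 of 5 in each, which was Mfrp from P15 to P18 and Adamts19 in the others. Sex differed entirely between the WT P15 and rd10 P15 libraries, so that at P15 the difference by genotype is separated from that by sex only through the rd10 P18 and P21 libraries.

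**Figure D4:**
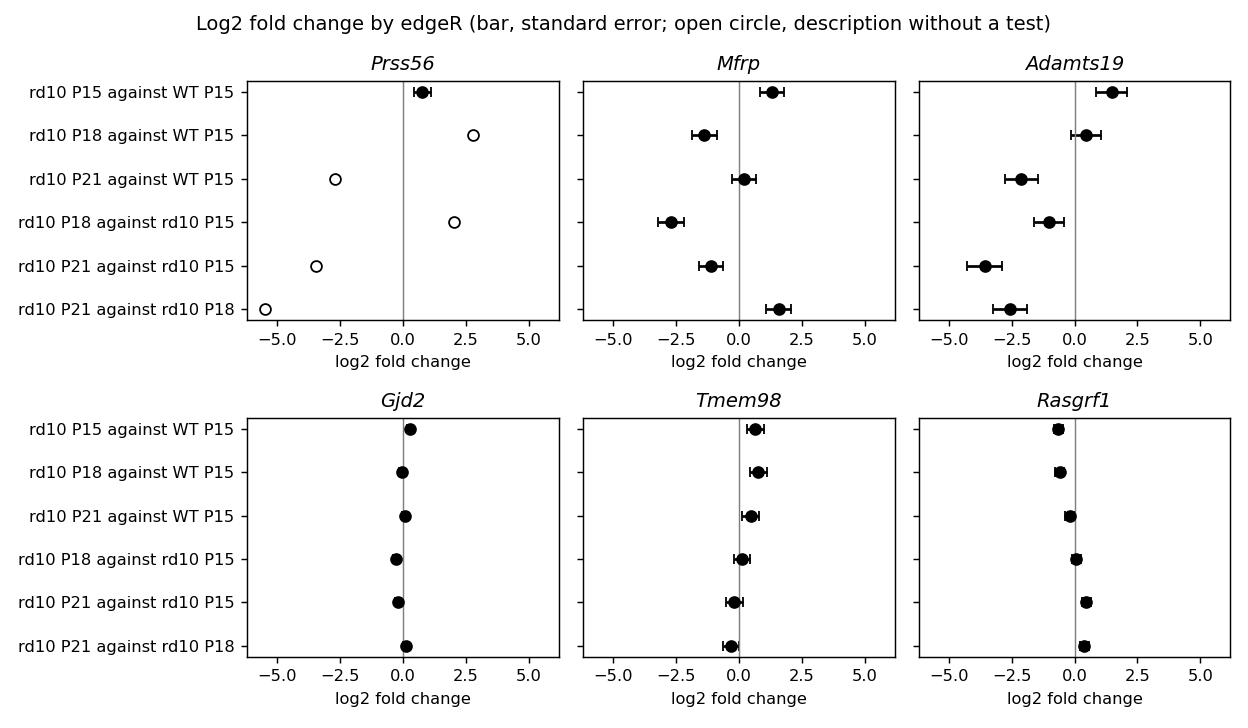
Log2 fold change (horizontal axis) of the 6 genes in the 6 comparisons (vertical axis) by edgeR's quasi-likelihood fit over all 8 libraries, with bars for the standard error. Open circles are the comparisons of Prss56 that are given without a test. Prss56 spans 2.78 to -5.48, and every value of Gjd2 lies between -0.30 and 0.26.

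Other genes of eye size and refraction were taken from lists of general knowledge. Of 14 further genes of small-eye disorders, none was called in rd10 P15, P18 or P21 against WT P15, where 0.23%, 1.48% and 0.386% of all genes were. At an unadjusted p under 0.05 there were 5, 5 and 7 of the 14, beside 12.3%, 17.4% and 11.8% of all genes. Their median log2 fold changes were 0.54, -0.09 and 0.42. Stra6, the receptor for retinol-binding protein in the RPE, fell from 20.4 and 21 CPM in rd10 P15 to 3.31 and 1.8 in rd10 P18 (-3.01 ± 0.43, edgeR adjusted p = 0.0342), the same step at which Mfrp was lower. The call was lost without either rd10 P15 library.

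Of 21 genes of high myopia, 20 were tested. Arr3, the arrestin of cones, fell in rd10 P15 (-1.71 ± 0.18, edgeR adjusted p = 0.015) and in rd10 P18 (-1.39 ± 0.18, edgeR adjusted p = 0.015) against WT P15, and rose again from rd10 P15 to P21 (1.49 ± 0.18, edgeR adjusted p = 0.0193). It stood at 185 and 155 CPM in WT P15 and, across the rd10 ages, 45.3 and 58.7 at P15, 62.3 and 67.3 at P18, and 132 and 160 at P21. Its call at P15 was lost with a term for sex (-1.52) and without WT P15 replicate 1 or either rd10 P15 library, that at P18 without WT P15 replicate 1, and the rise to P21 without either rd10 P15 library. Of 8 other cone genes, none was called by edgeR in any comparison. Their sum was 1602 and 1286 CPM in WT P15 and, across the rd10 ages, 910 and 976 at P15, 1436 and 1354 at P18, and 1541 and 1581 at P21. All 8 were lower in rd10 P15 than in WT P15 (median log2 fold change -0.62), 6 at an unadjusted p under 0.05 (12.3% of all genes). From rd10 P15 to P21 all 8 were higher (median 0.61), again 6 at an unadjusted p under 0.05 (12.8% of all genes).

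Of 30 genes near loci linked to refraction, 28 were tested and none was called by edgeR, with 4, 4 and 3 at an unadjusted p under 0.05 in rd10 P15, P18 and P21 against WT P15, where 12.3%, 17.4% and 11.8% of all genes were. Their median log2 fold changes in these comparisons were 0.36, -0.03 and 0.22. In rd10 P18 against WT P15, the smallest unadjusted p were those of Lama2, a laminin chain (1.80 ± 0.42, edgeR adjusted p = 0.0761), and Rgr, an opsin of the RPE and Müller glia (-2.39 ± 0.73, edgeR adjusted p = 0.179).

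Of 25 retinal signals studied in experimental eye growth, 23 were tested. Egr1, the immediate-early transcription factor whose level in amacrine cells follows the sign of defocus, rose in rd10 P15 (2.60 ± 0.21, edgeR adjusted p = 0.00548), P18 (2.27 ± 0.21, edgeR adjusted p = 0.00381) and P21 (1.83 ± 0.20, edgeR adjusted p = 0.0268) against WT P15. It stood at 58.6 and 56.2 CPM in WT P15 and, across the rd10 ages, 425 and 271 at P15, 279 and 273 at P18, and 205 and 202 at P21, without overlap between WT and any rd10 group. The call at P15 was lost with a term for sex or without WT P15 replicate 1, and that at P21 without either WT P15 library or rd10 P21 replicate 1. It was the only gene of this list called by edgeR in the 3 comparisons with WT P15.

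**Figure D5:**
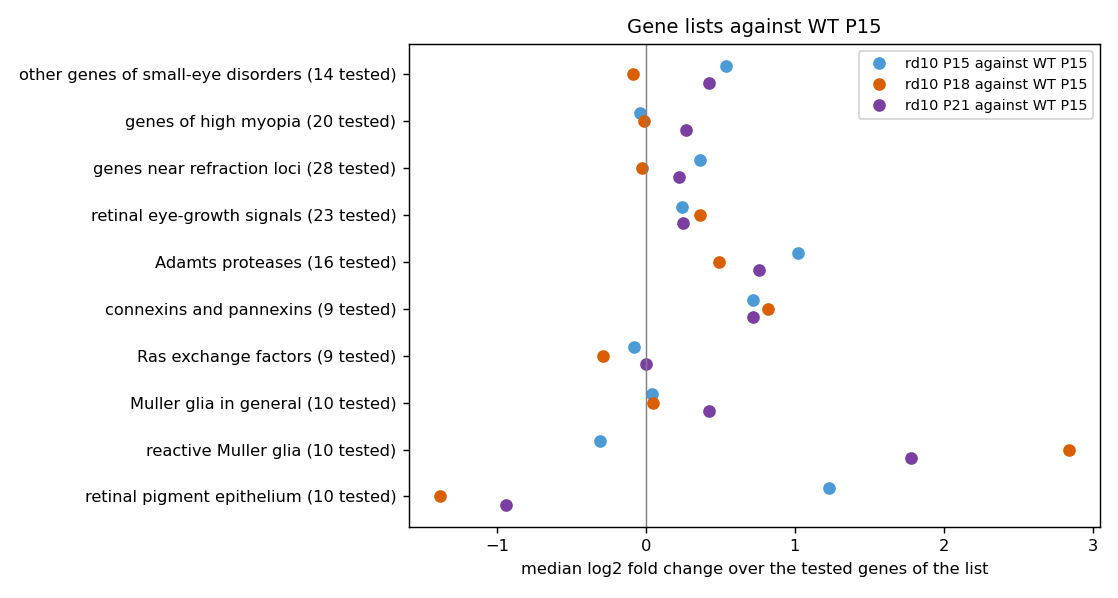
Median log2 fold change to WT P15 (horizontal axis) over the tested genes of 10 lists (vertical axis), for rd10 P15, P18 and P21. The reactive Müller list stands at 2.84 in rd10 P18 and 1.78 in rd10 P21, and the RPE list at 1.23 in rd10 P15 and -1.38 in rd10 P18. The median over all genes tested lay between -0.01 and 0.01.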

How the data were processed

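The authors isolated whole retinas, selected mRNA with oligo-dT beads and sequenced it on an Illumina NovaSeq instrument. The deposited table holds raw counts, whole numbers without normalization, for each of the 8 libraries. HISAT2 is named in the submitters' processing notes, and its version, the build, the counter and the annotation were not given in the sources read. Symbols, positions and exon lengths came from GENCODE M21 (GRCm38), which names 52081 of 57010 identifiers, and upstream windows from RefSeq (GRCm38.p6, for 5 of the 6 genes).

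Counts were tested with edgeR 4.0.16 (R 4.3.3): filterByExpr (4 groups, counts of at least 10 and 15 in total), TMM, and the robust quasi-likelihood test over all 8 libraries without a replicate block. P-values were adjusted by Benjamini-Hochberg over 20457 genes. Calls, as in the study, needed an adjusted p below 0.05 and a log2 fold change beyond 1 in size. A standard error is the log2 fold change over the square root of F. CPM are TMM-scaled, with a prior count of 2 for log2 CPM. The fits were tested on simulated data. The labels do not say whether retinas came from separate animals. Those of rd10 P18 and of rd10 P21 did, since the 2 libraries of each differed in sex. P-values rest on an estimate of the spread between libraries that all 4 groups share, and not on the spread of the compared groups alone. The spread within each group was above counting noise (chi-square per gene 28.6 for WT P15, and 23, 95 and 36.7 for rd10 at P15, P18 and P21). In WT P15 and rd10 P15 it may not be a spread between animals.

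The members and lists were chosen with earlier results of these data known. Of a list, genes called in any comparison are named (at most 4, by absolute log2 fold change), and otherwise the 2 with the smallest unadjusted p in rd10 P18 against WT P15. An item that this rule names is not reported here. Others were named as neighbours or by likeness of pattern, or were picked from the lists after their values were seen. The picked genes include C1qtnf5, Myrf, Gfap, Glul, Rlbp1, Tyrp1, Rpe65, Dct, Optc, Mab21l1, Col9a1, Gad1, Mobp, Mog, Mag, Sox10, Mbp, Cnp and Stat3. Alternatives were DESeq2 1.42.0, each library left out in turn, a term for sex, the replicate number as a block, scaling by RLE factors or by library size, no filter, no fold threshold and a fit of only the compared libraries. Figures were drawn with matplotlib 3.10.9.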

Additional observations from a re-analysis of the deposited data

Results flagged for a closer look

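Prss56 stood on opposite sides of WT P15 at different ages of rd10. It was above the WT P15 range in both libraries at P15 (log2 fold change 0.76) and P18 (2.78), and below that range in both at P21 (-2.70). This pattern chose the gene, and the difference between the ages was not tested. Mfrp lay above both WT P15 libraries in rd10 P15 (1.32) and below both in rd10 P18 (-1.38), and the direct comparison of these rd10 groups gave an edgeR adjusted p of 0.0712. Adamts19 lay above both WT P15 libraries in rd10 P15 (1.47) and below both in rd10 P21 (-2.11), and the direct comparison gave an edgeR adjusted p of 0.084. Each of these comparisons uses the same WT P15 libraries, which differed by 2.53 times for Mfrp and by 2.17 times for Adamts19.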

How the results depend on the processing

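Of 465 values of the 6 genes with a test under the alternatives, 445 kept their direction and their side of the threshold, 10 passed the threshold and 10 turned. Of 75 values of Prss56 given without a test, 6 moved and 0 turned. Between rd10 P15 and P18, DESeq2, no filter, the replicate block and the term for sex each called 1 of the 5 genes, which was Mfrp. Between rd10 P15 and P21, DESeq2 and no filter (-3.57, edgeR adjusted p = 0.0408) called 1, Adamts19, and DESeq2 called 1 between P18 and P21. With a library left out, between 0 and 1 of them were called in both comparisons with rd10 P15 and 0 in the others.

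Directions turned for small differences. Gjd2 in rd10 P18 against WT P15 was 0.08 by library size only. Mfrp in rd10 P21 against WT P15 lay between -0.40 and 1.02 with a library left out, and was -0.30 without WT P15 replicate 1. From rd10 P15 to P18, Rasgrf1 was -0.11 with the term for sex and lay between -0.25 (without rd10 P18 replicate 2) and 0.33 with a library left out, and Tmem98 between -0.15 (without rd10 P18 replicate 1) and 0.39. From rd10 P15 to P21, Tmem98 was 0.04 with the term for sex and lay between -0.40 and 0.09 with a library left out. Without rd10 P18 replicate 1 or 2, Prss56 was 1.37 or 2.47 against rd10 P15, and -4.83 or -5.93 from P18 to P21. The cause was not tested.

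Counts of called genes over the whole table moved more. In the order P15, P18 and P21 against WT P15, P18 and P21 against rd10 P15, and P21 against P18, edgeR called 47, 303, 79, 121, 82 and 4 genes. DESeq2 called 429, 954, 571, 604, 528 and 118, the term for sex gave 4, 191, 36, 275, 156 and 12, and fits of only the libraries compared gave 206, 143, 129, 74, 182 and 2. Without a filter there were 144, 160, 125 and 19 at P15 and P21 against WT P15, at P21 against rd10 P15 and at P21 against P18. With a library left out, the counts lay between 6 and 246, 39 and 1250, 4 and 210, 16 and 977, 10 and 217, and 3 and 963. Same-numbered libraries did not deviate together over all genes (r between -0.0245 and 0.0594). This r cannot show whether the numbers pair the libraries, since in rd10 P18 it also holds the difference by transcript length. In rd10 P18 and P21 the number also coincided with sex. The replicate block gave 16 genes at P15 and 18 at P21 against WT P15. Of 900 values of called genes of the other lists, 661 stayed called, 239 did not and 0 turned. With RLE size factors the genes most like each of the 6 were the same except Lrrc49 for Adamts19. By library size only, Prss56 had mean CPM of 11.9, 20.8, 90.0 and 1.97 in the 4 groups. Groups of 2 libraries and 6 to 122 counts limit what can be said of Adamts19 from P18 on.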
